A study of Mus musculus with 7 samples.

Results

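Cholesterol genes were followed here as 29 mouse genes, chosen by symbol for their place in the pathway. They comprised 17 enzymes of cholesterol synthesis, 5 regulators of the sterol response and 7 genes of cholesterol efflux and storage, out of 23358 gene entries in all. Each of the 29 symbols matched 1 entry, and each of these entries was tested by the authors and reached 1 FPKM in at least 1 group. The cells were sorted from brains of C57Bl6 mouse embryos at stage E14.5 and are labelled endothelial. The groups were 4 libraries labelled as deficient in Tgfbr2, a receptor for TGF-β ligands, and 3 labelled as controls. The design text states that the Ai14 allele gives TdTomato in recombined cells and that cells were sorted on TdTomato. It gives 2000 to 5000 cells per library and single-end reads of 50 bases. No source used here names the Cre driver, the Tgfbr2 allele or the number of embryos.

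Cholesterol is built from acetyl-CoA in the cytosol and the endoplasmic reticulum. When sterol is scarce, Scap carries the SREBP proteins out of that membrane to be cut, and the freed SREBP2 raises the synthesis enzymes, while the Insig proteins hold Scap back when sterol is plentiful. When sterol is abundant, oxysterols bind the LXR receptors, which raise the efflux pumps. The brain makes its own cholesterol, since lipoproteins of the blood hardly cross its barrier, and macrophages that take up dead cells depend on efflux to unload theirs.

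The bases just before the transcription start are shown for 5 members, because SREBP proteins and their partners bind promoters of this pathway. The first 4 picked were the members with the largest falls (Ebp, Abca1) and rises (Nr1h3, Cyp51) that had an entry in the RefSeq promoter table of GRCm38.p6, the assembly of mm10. Hmgcs1 was added after the search as the single member with a match to TCACNCCAC, the sterol regulatory element, among the windows searched. Capitals mark matches, on either strand, to that element, to the E-box CACGTG, to the CCAAT box CCAAT and to the GC box GGGCGG. The last line has no capitals because none of these was found in it. Bases that GENCODE M21 places in an exon of the gene were removed, which also took a CCAAT match from Cyp51.
Hmgcs1, chr13:119690101-119690350, plus strand: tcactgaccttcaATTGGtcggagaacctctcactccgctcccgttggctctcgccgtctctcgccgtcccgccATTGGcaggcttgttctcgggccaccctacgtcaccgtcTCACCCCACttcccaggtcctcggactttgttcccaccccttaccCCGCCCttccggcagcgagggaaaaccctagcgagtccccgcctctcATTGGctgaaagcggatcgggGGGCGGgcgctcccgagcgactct
Cyp51, chr5:4104747-4104947, minus strand: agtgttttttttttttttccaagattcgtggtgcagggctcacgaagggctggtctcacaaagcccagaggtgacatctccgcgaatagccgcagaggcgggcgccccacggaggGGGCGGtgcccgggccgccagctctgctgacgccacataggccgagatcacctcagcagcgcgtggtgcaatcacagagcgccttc
Ebp, chrX:8193513-8193762, minus strand: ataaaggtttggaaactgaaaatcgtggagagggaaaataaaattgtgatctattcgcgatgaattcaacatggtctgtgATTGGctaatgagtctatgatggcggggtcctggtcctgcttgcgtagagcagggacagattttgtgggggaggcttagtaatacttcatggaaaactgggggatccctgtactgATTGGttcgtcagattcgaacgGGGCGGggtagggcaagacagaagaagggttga
Abca1, chr4:53159896-53160145, minus strand: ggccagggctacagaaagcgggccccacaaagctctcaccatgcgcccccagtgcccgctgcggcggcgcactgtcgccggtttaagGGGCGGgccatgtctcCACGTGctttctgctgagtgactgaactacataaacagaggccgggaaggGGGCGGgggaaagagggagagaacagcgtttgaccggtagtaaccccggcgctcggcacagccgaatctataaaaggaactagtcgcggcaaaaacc
Nr1h3, chr2:91195152-91195366, minus strand: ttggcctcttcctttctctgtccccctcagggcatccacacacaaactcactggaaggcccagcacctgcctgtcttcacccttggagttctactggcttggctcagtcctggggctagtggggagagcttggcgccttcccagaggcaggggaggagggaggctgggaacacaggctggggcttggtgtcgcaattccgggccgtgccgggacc

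Over the 250 bases before each start, entries were found for 25 of the 29 members, and those without were Fdps, Fdft1, Sqle and Abcg1. A gene with several starts counted as holding a motif where any of its windows did. The CCAAT box, bound by NF-Y, a partner of SREBP, stood before 13 of 14 synthesis genes, 4 of 5 regulators and 3 of 6 efflux genes. It stood before 40.3% of the 9799 tested genes that had an entry and in 33.8% of all 32817 windows. The GC box, a site for Sp1, stood before 13 synthesis genes, 5 regulators and 3 efflux genes, against 64.4% of tested genes and 32.7% of windows. The E-box stood before 3 synthesis genes (Dhcr7, Hsd17b7 and Sc5d), 2 regulators (Insig1 and Scap) and 1 efflux gene (Abca1), against 9.81% of tested genes and 6.02% of windows. The strict form of the sterol element had its 1 match in Hmgcs1, against 1.25% of tested genes and 1.05% of windows. The DR4 element of LXR was taken as an exact repeat of AGGTCA with 4 free bases between. It had a match in 0 of the member windows, in 0 of the 9799 tested genes and in 0.0152% of all windows. So strict a form cannot tell whether a member holds a looser LXR element. No motif contains another. CCAAT and GC boxes stood both before Ebp, which fell, and before Hmgcs1, which rose.

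The comparison of the libraries labelled Tgfbr2-deficient with the control libraries asks which transcripts differ between them. Of the 29 cholesterol genes 7 rose in the Tgfbr2-deficient group and 2 fell, at a q-value under 0.05 in the authors' deposited table. Those that rose were Hmgcs1, Sqle, Lss, Cyp51, Insig1, Srebf2 and Nr1h3, and those that fell were Ebp and Abca1. The remaining 20 did not pass. Over all 13356 tested genes 38.6% were called, 23.9% as higher and 14.7% as lower, beside 31.0%, 24.1% and 6.90% of the 29 members. The share of members that rose is therefore near that of all genes and is no result about the pathway as a whole. Among tested genes of at least 5 FPKM in a group 36.7% were called, 17.2% as higher and 19.5% as lower, beside 7 and 2 of the 28 members above that level. At q under 0.01, 20.3% of tested genes were higher and 7.68% lower, and the members called were Sqle, Lss, Cyp51, Insig1, Nr1h3 and Ebp. A log2 fold of at least 1 was reached, with q under 0.05, by 20.1% of tested genes as higher and 2.76% as lower, and by Sqle, Nr1h3 and Ebp among the members.

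Each group has 1 FPKM value per gene (fragments scaled to transcript length and to library size), which the authors' Cuffdiff made from the group's libraries. No value per library was analysed here, so spread and depth are unknown and the deposited q-value is the error measure. Nothing in the labels ties each library to its own embryo, so a q-value reflects spread between libraries that could be technical.

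**Figure D1:**
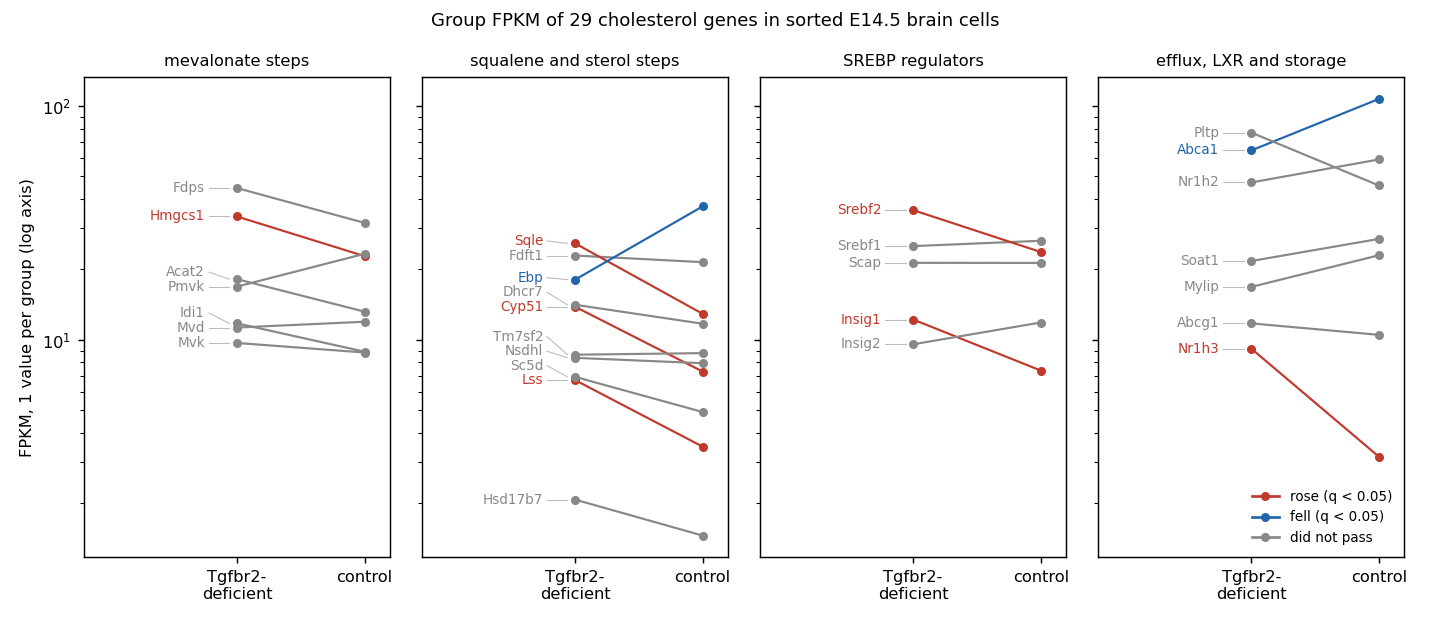
Each line joins the FPKM of 1 gene in the Tgfbr2-deficient group (left) with that in the control group (right), on a log axis, with 1 value per group and no error bar. Red lines rose and blue lines fell at q under 0.05 in the authors' deposited table, so Sqle lies at 25.9 and 12.9 FPKM and Ebp at 18.1 and 37.2 FPKM.

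The markers of other cells also differed between the groups. In the list of 20 macrophage markers, 18 genes fell and 0 rose, and their summed level was 6883 FPKM in the Tgfbr2-deficient group and 14594 FPKM in the control group. Of 20 pan-endothelial markers 18 rose and 1 fell, and they summed to 543 FPKM in the Tgfbr2-deficient group and 150 FPKM in the control group. The macrophage sum was thus 12.7 times the endothelial sum in the Tgfbr2-deficient group and 97.4 times in the control group, although the cells are labelled endothelial. Fli1, which fell, and Egfl7, which did not pass, made up most of the control endothelial sum, at 58.3 and 47.7 FPKM. They stood at 39.1 and 64.7 FPKM in the Tgfbr2-deficient group. Both ratios would be higher without them, that of the control group most. All 14 fibroblast markers, 10 of 13 mural, all 13 neuron, 11 of 13 neural progenitor, all 6 erythroid and all 10 mast cell and platelet markers that were tested rose, and none fell. No marker of these lists was at 0 in either group. The part of this shift in the cholesterol genes was not tested, and in such bulk samples fewer cells of a type and less RNA per cell cannot be told apart. Tgfbr2 itself stood at 65.4 FPKM in the Tgfbr2-deficient group and 91.1 FPKM in the control group, a difference that did not pass (q = 0.0953, from the authors' deposited table). The level of the whole gene therefore does not check the label, and the deleted part of the gene is not named in the labels.

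Folds above 0 were found for 13 of 17 synthesis genes and 3 of 7 efflux genes, beside 45.1% of all tested genes, so the efflux count is near that of all genes. The median log2(FPKM + 1) fold was 0.32 for the 17 synthesis genes and −0.30 for the 7 efflux genes, beside −0.08 for all tested genes. The difference of 0.63 is a description of these genes and was not tested, and without Abca1 alone it was 0.40. By the q-value, 4 synthesis genes rose (23.5%) and 1 fell (5.88%), and 1 efflux gene rose (14.3%) and 1 fell (14.3%). Of all tested genes 23.9% rose and 14.7% fell. The shares that rose in synthesis and fell in efflux are therefore near those of all genes. Centring on cytoplasmic ribosomal protein genes, whose median fell by 0.54, adds 0.54 to every log2 fold. It turns the efflux median to 0.24 and leaves the difference between the medians as it was.

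Summed over genes, synthesis came to 274 FPKM in the Tgfbr2-deficient group and 238 FPKM in the control group, a ratio of 1.15. Efflux genes came to 248 FPKM in the Tgfbr2-deficient group and 276 FPKM in the control group, a ratio of 0.900. Synthesis was therefore 1.10 times efflux in the Tgfbr2-deficient group and 0.863 times efflux in the control group. Abca1 alone gave 64.6 FPKM of the efflux sum in the Tgfbr2-deficient group and 107 FPKM in the control group. Its fall was larger than that of the whole efflux sum, so the lower sum and the change of order rest on Abca1. By the mean of both groups, the most abundant genes in these sums were Fdps, Hmgcs1 and Ebp for synthesis and Abca1, Pltp and Nr1h2 for efflux.

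**Figure D2:**
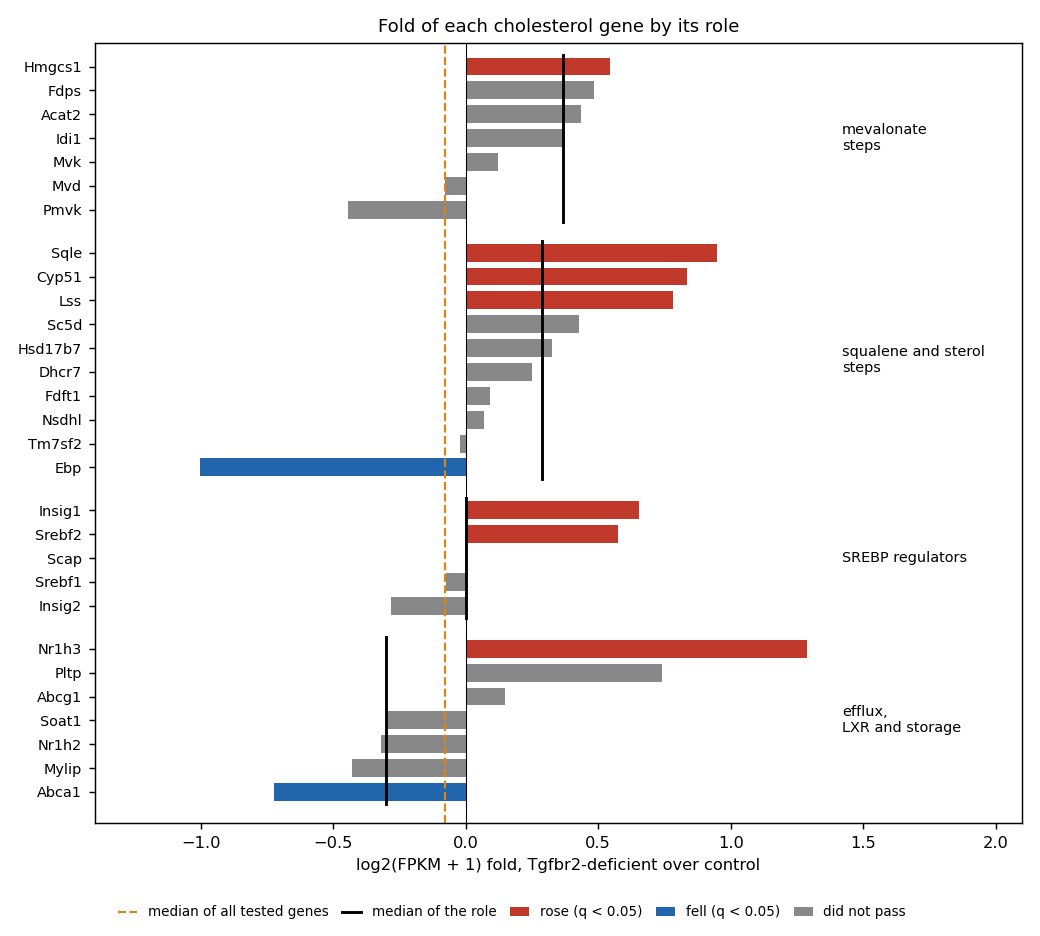
Bars give the log2(FPKM + 1) fold of each gene, Tgfbr2-deficient over control, with black lines at the median of each role and a dashed line at −0.08, the median of all tested genes. The sterol steps hold both Sqle at 0.95 and Ebp at −1.0, and the efflux median of −0.30 becomes 0.24 when folds are centred on ribosomal protein genes.

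In the mevalonate steps, 1 of 7 genes rose (14.3%) and 0 fell, beside 23.9% and 14.7% of all tested genes. Hmgcs1, which makes HMG-CoA and lies on chromosome 13 from 119690462 to 119708077 of mm10, had 33.7 FPKM in the Tgfbr2-deficient group and 22.8 FPKM in the control group. Its log2 fold of 0.56 had q = 0.0277 in the authors' deposited table, and it lost its call at q under 0.01. The antisense gene Gm48342 shares 12.1% of its exonic bases, and since neither kit marks strand, reads of such pairs cannot be told apart.

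The enzymes on either side of mevalonate did not pass. Fdps, which joins isoprene units into farnesyl pyrophosphate, was the most abundant synthesis gene of the Tgfbr2-deficient group, at 44.6 FPKM in the Tgfbr2-deficient group and 31.6 FPKM in the control group. Its log2 fold of 0.50 had q = 0.0667 in the authors' deposited table, and 26.7% of its exonic bases are shared with Gm43738. Acat2, the cytosolic thiolase that starts the pathway, had 18.2 FPKM in Tgfbr2-deficient and 13.2 FPKM in control cells. Idi1, which isomerises isopentenyl pyrophosphate, had 11.8 FPKM in Tgfbr2-deficient and 8.90 FPKM in control cells. Gm48574 on the other strand shares 9.22% of the exonic bases of Idi1. The levels of Fdps, Acat2 and Idi1 were all higher in the Tgfbr2-deficient group, without passing the test.

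The kinases and the decarboxylase that turn mevalonate into isopentenyl pyrophosphate stayed near their control levels or below. Mvk, the first kinase, had 9.70 FPKM in Tgfbr2-deficient and 8.82 FPKM in control cells. Pmvk, the next kinase, had 16.9 FPKM in Tgfbr2-deficient and 23.3 FPKM in control cells, with q = 0.138 in the authors' deposited table. Mvd, the decarboxylase, had 11.3 FPKM in Tgfbr2-deficient and 12 FPKM in control cells. The median of the mevalonate steps was 0.37 on the log2(FPKM + 1) scale.

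The squalene and sterol steps held the largest changes among the enzymes, with 3 of 10 genes higher and 1 lower. These are 30% and 10%, beside 23.9% and 14.7% of all tested genes. Sqle, which puts oxygen on squalene and is a control point of the pathway, had 25.9 FPKM in the Tgfbr2-deficient group and 12.9 FPKM in the control group. This is a ratio of 2.0, and the authors' deposited table gives a log2 fold of 1.0 with q = 0.00029, which is the smallest q there. The gene lies on chromosome 15 from 59315092 to 59331193 of mm10 and shares 0 exonic bases with another gene.

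The following enzymes of the chain rose with it. Lss, which folds oxidised squalene into lanosterol, had 6.73 FPKM in Tgfbr2-deficient and 3.49 FPKM in control cells, a ratio of 1.93 with q = 0.00428 in the authors' deposited table. Cyp51, which takes a methyl group off lanosterol, had 13.9 FPKM in Tgfbr2-deficient and 7.32 FPKM in control cells, a ratio of 1.89 with q = 0.000544 in the authors' deposited table. Sqle, Lss and Cyp51 are consecutive steps, and their ratios lie within 1.89 to 2.0. Fdft1, the squalene synthase just before them, had 22.9 FPKM in Tgfbr2-deficient and 21.5 FPKM in control cells, with q = 0.964 in the authors' deposited table. Ctsb, a lysosomal protease gene on the other strand, shares 18.3% of the exonic bases of Fdft1.

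Ebp was the single enzyme of synthesis that fell. Ebp, which moves a double bond within the sterol ring, had 18.1 FPKM in the Tgfbr2-deficient group and 37.2 FPKM in the control group. It was the most abundant synthesis gene of the control group. Its ratio was 0.486, and the authors' deposited table gives a log2 fold of −1.04 with q = 0.00029. On log2(FPKM + 1) its fold of −1.0 stood at percentile 2.16 of all tested genes, and it was −0.46 when centred on ribosomal protein genes. The gene lies on chromosome X from 8185331 to 8193512 of mm10 and shares 0 exonic bases with another gene. Tmem97, a member of the same protein family that binds sterol ligands, also fell, to 28.8 FPKM in Tgfbr2-deficient cells against 44.5 FPKM in control cells, with q = 0.0175 in the authors' deposited table. Tmem97 was fixed in a list of SREBP-related genes and was set beside Ebp after its value was seen.

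The other late sterol enzymes did not pass. Sc5d, a sterol desaturase, had 6.94 FPKM in Tgfbr2-deficient and 4.91 FPKM in control cells. Dhcr7, a reductase of the last steps, had 14.1 FPKM in Tgfbr2-deficient and 11.7 FPKM in control cells. Hsd17b7, which reduces a ring ketone, was the least abundant member, at 2.07 FPKM in Tgfbr2-deficient and 1.45 FPKM in control cells. These had folds above 0, with q from 0.136 to 0.354 in the authors' deposited table. Nsdhl, a dehydrogenase that helps remove methyl groups, had 8.37 FPKM in Tgfbr2-deficient and 7.94 FPKM in control cells. Tm7sf2, a sterol reductase, had 8.64 FPKM in Tgfbr2-deficient and 8.77 FPKM in control cells. Tm7sf2 shares 12.1% of its exonic bases with Vps51. The median of the 10 genes was 0.29.

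Of the 5 regulators, Srebf2 and Insig1 rose and none fell, while their paralogs did not pass. The shares were 40% higher and 0% lower, beside 23.9% and 14.7% of all tested genes. Srebf2, which encodes SREBP2, the main activator of cholesterol synthesis, had 35.9 FPKM in the Tgfbr2-deficient group and 23.8 FPKM in the control group. Its log2 fold of 0.59 had q = 0.0150 in the authors' deposited table. Srebf1, whose products lean towards fatty acid synthesis, had 25.2 FPKM in Tgfbr2-deficient and 26.5 FPKM in control cells, with q = 0.838 in the authors' deposited table. Srebf2 was thus the more abundant of the pair in the Tgfbr2-deficient group, and Srebf1 in the control group, a crossing that was not tested.

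Insig1, an anchor of Scap that SREBP2 itself induces, had 12.2 FPKM in the Tgfbr2-deficient group and 7.39 FPKM in the control group. Its log2 fold of 0.72 had q = 0.00890 in the authors' deposited table. Insig2, the other anchor, had 9.57 FPKM in Tgfbr2-deficient and 11.9 FPKM in control cells. The authors' deposited table gives q = 0.312. The order of the Insig genes was therefore also different in the groups, and this too was not tested. Scap, the escort of the SREBP proteins, had 21.3 FPKM in both groups. The gene 5830462I19Rik on the other strand shares 13.2% of the exonic bases of Scap. The median of the 5 regulators was 0.00, and it was 0.54 when centred on ribosomal protein genes.

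Among the efflux, LXR and storage genes, Nr1h3 rose, Abca1 fell and 5 of 7 did not pass. Each direction held 14.3% of these genes, beside 23.9% higher and 14.7% lower among all tested genes. Nr1h3, which encodes LXRα, the receptor of liver and macrophages, had 9.17 FPKM in the Tgfbr2-deficient group and 3.17 FPKM in the control group. With a ratio of 2.90 it had the largest fold of the 29 genes, and the authors' deposited table gives q = 0.00029. It lies on chromosome 2 from 91184061 to 91195116 of mm10. Nr1h2, which encodes the widely expressed LXRβ, had 47.1 FPKM in Tgfbr2-deficient and 59.1 FPKM in control cells, with q = 0.223 in the authors' deposited table. Nr1h2 stayed the more abundant receptor in both groups, and a pseudogene, Nr1h2-ps, could share its reads.

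Abca1, the pump that loads cholesterol onto lipid-poor apolipoprotein, was the most abundant of the 29 genes in the control group. It had 64.6 FPKM in the Tgfbr2-deficient group and 107 FPKM in the control group, a ratio of 0.602. In the authors' deposited table its log2 fold of −0.73 had q = 0.0499, just inside the threshold, and q recomputed over the genes of 1 FPKM or more was 0.0502, so the call was lost. The macrophage markers, whose median fell by 1.08 on log2(FPKM + 1), moved in the same direction as the fall of 0.72 for Abca1 on that scale. Ebp, at −1.0 on that scale, also fell, and the part of the macrophage markers in either fall was not tested. Abcg1, the pump that unloads cholesterol onto high-density lipoprotein, had 11.8 FPKM in Tgfbr2-deficient and 10.5 FPKM in control cells, with q = 0.576 in the authors' deposited table. Whether Abca1 and Abcg1 differ in their change was not tested.

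Pltp, the phospholipid transfer protein, was the most abundant member in the Tgfbr2-deficient group, at 77.0 FPKM against 45.7 FPKM in the control group. Its ratio of 1.68 was close to that of Insig1, yet its p was 0.556 and its q 0.670 in the authors' deposited table. Ctsa on the other strand shares 19.3% of its exonic bases. Mylip, the ubiquitin ligase that degrades lipoprotein receptors, had 16.8 FPKM in Tgfbr2-deficient and 23.0 FPKM in control cells, with q = 0.0876 in the authors' deposited table. Soat1, which esterifies cholesterol for storage, had 21.7 FPKM in Tgfbr2-deficient and 27.0 FPKM in control cells, with q = 0.237 in the authors' deposited table. Within the efflux list, the LXR targets Abca1, Abcg1, Mylip and Pltp did not rise by the q-value beside the rise of Nr1h3. In the list of other LXR and efflux genes 2 of 14 rose and 1 fell. Whether LXR targets followed Nr1h3 was not tested.

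**Figure D3:**
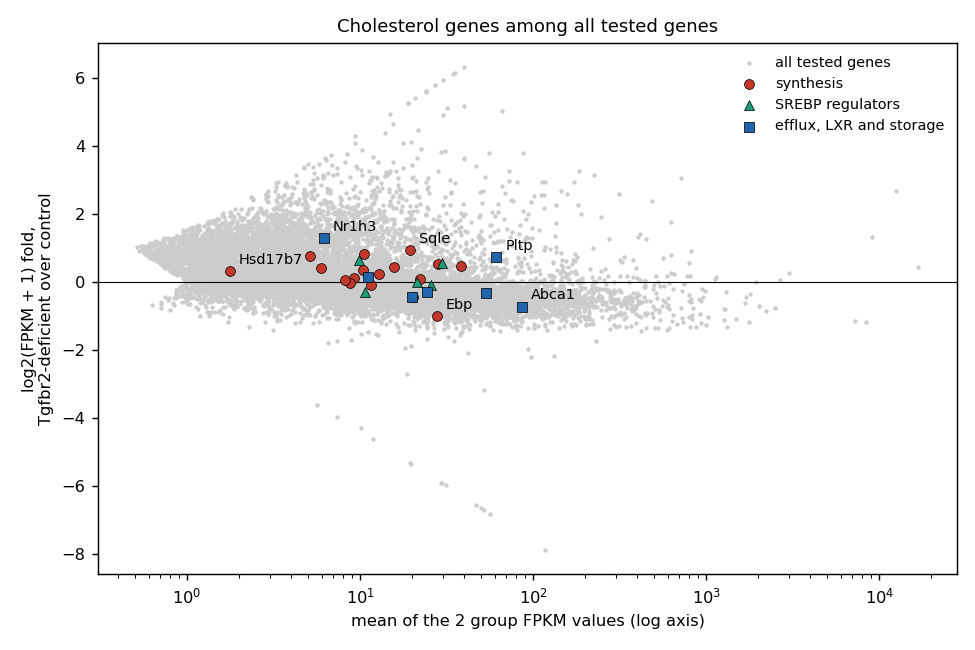
Each point is 1 gene, with the mean of its group FPKM values on a log axis across and its log2(FPKM + 1) fold, Tgfbr2-deficient over control, upward. The 29 cholesterol genes (coloured) lie between 1.76 and 85.9 FPKM, within the cloud of the 13356 tested genes (grey).

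By level, the 29 genes spanned a mean of 1.76 to 85.9 FPKM over the groups. Of the 10670 tested genes within that span, 35.3% were called, 20.9% as higher and 14.4% as lower in the Tgfbr2-deficient group. On log2(FPKM + 1), Nr1h3 stood at percentile 90.3 of all tested folds, Sqle at 83.5, Cyp51 at 81.0 and Lss at 79.7, while Abca1 stood at 7.46 and Ebp at 2.16.

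Other genes of sterol and lipid handling came from lists of the pathway, and their counts are given list by list, with no test between lists. Each count stands beside 23.9% higher and 14.7% lower among all tested genes. Of 13 fatty acid genes known as SREBP1 targets 9 rose and 0 fell, which is 69.2% higher beside 23.9% of all tested genes, with a median of 0.56. Fads2, a desaturase of long fatty acids, had 45.6 FPKM in Tgfbr2-deficient and 11.2 FPKM in control cells, and Scd2, the stearoyl-CoA desaturase of embryo and brain, had 87.7 FPKM in Tgfbr2-deficient and 30.7 FPKM in control cells. Me1, which supplies NADPH, had 6.70 FPKM in Tgfbr2-deficient and 2.53 FPKM in control cells, and Scd1 had 1.64 FPKM in Tgfbr2-deficient and 0.243 FPKM in control cells. Each of these had q = 0.00029 in the authors' deposited table. Acly, Fads1 and Fasn did not pass, with Acly at 70.6 FPKM in Tgfbr2-deficient and 79.1 FPKM in control cells. Neuron markers, with a median of 1.30, and fibroblast markers, with one of 2.44, rose in the same libraries, and their part was not tested.

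Of 7 other synthesis genes and their electron donors 2 rose and 0 fell, with a median of 0.37. The donors Por and Cyb5r3 did not pass, with Por at 77.8 FPKM in Tgfbr2-deficient and 81.2 FPKM in control cells and Cyb5r3 at 87.9 FPKM in Tgfbr2-deficient and 85.1 FPKM in control cells. Of 12 tested genes of the SREBP machinery and its targets 1 rose and 1, Tmem97, fell, with a median of −0.10, which became 0.44 when centred on ribosomal protein genes.

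Uptake and transport genes moved both ways, with 3 of 16 higher and 3 lower. Lrp8 and Vldlr, lipoprotein receptors that also bind reelin, had 12.5 and 2.52 FPKM in Tgfbr2-deficient cells, against 2.93 and 0.460 FPKM in control cells. Gramd1c, a sterol carrier between membranes, had 1.91 FPKM in Tgfbr2-deficient and 0.126 FPKM in control cells. Those that fell were Stard3, Npc2 and Scarb1. Stard3, a sterol tether of late endosomes, had 35.6 FPKM in Tgfbr2-deficient and 58.8 FPKM in control cells, with q = 0.00357 in the authors' deposited table. Npc2, which lifts cholesterol out of the lysosome, had 54.0 FPKM in Tgfbr2-deficient and 86.1 FPKM in control cells. Scarb1, a receptor for high-density lipoprotein, had 51.5 FPKM in Tgfbr2-deficient and 76.7 FPKM in control cells. The genes that fell were above 50 FPKM in the control group and those that rose were under 5 FPKM there.

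Of 14 other LXR and efflux genes 2 rose and 1 fell. Abcg4, a sterol pump of neurons and glia, had 3.98 FPKM in Tgfbr2-deficient and 0.942 FPKM in control cells, and the coactivator Ncoa1 had 7.55 FPKM in Tgfbr2-deficient and 5.05 FPKM in control cells. Apoc1, a small apolipoprotein that LXR induces in macrophages, fell to 26.7 FPKM in Tgfbr2-deficient cells, against 48.6 FPKM in control cells, with q = 0.0226 in the authors' deposited table. Oxysterol enzymes split evenly, with 2 of 5 tested genes higher and 2 lower. With no FPKM filter 3 were higher and 2 lower, so the even split depends on the filter. Cyp27a1, a sterol hydroxylase of macrophages and liver, had 18.4 FPKM in Tgfbr2-deficient and 45.5 FPKM in control cells, and Hsd3b7, which works on its products, had 17.2 FPKM in Tgfbr2-deficient and 27.6 FPKM in control cells. Cyp46a1, the cholesterol hydroxylase of neurons, had 2.13 FPKM in Tgfbr2-deficient and 0.403 FPKM in control cells, and Cyp39a1, which acts on its product, had 1.78 FPKM in Tgfbr2-deficient and 0.647 FPKM in control cells. The part of the neuron markers, which rose, and of the macrophage markers, which fell, was not tested for these genes.

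**Figure D4:**
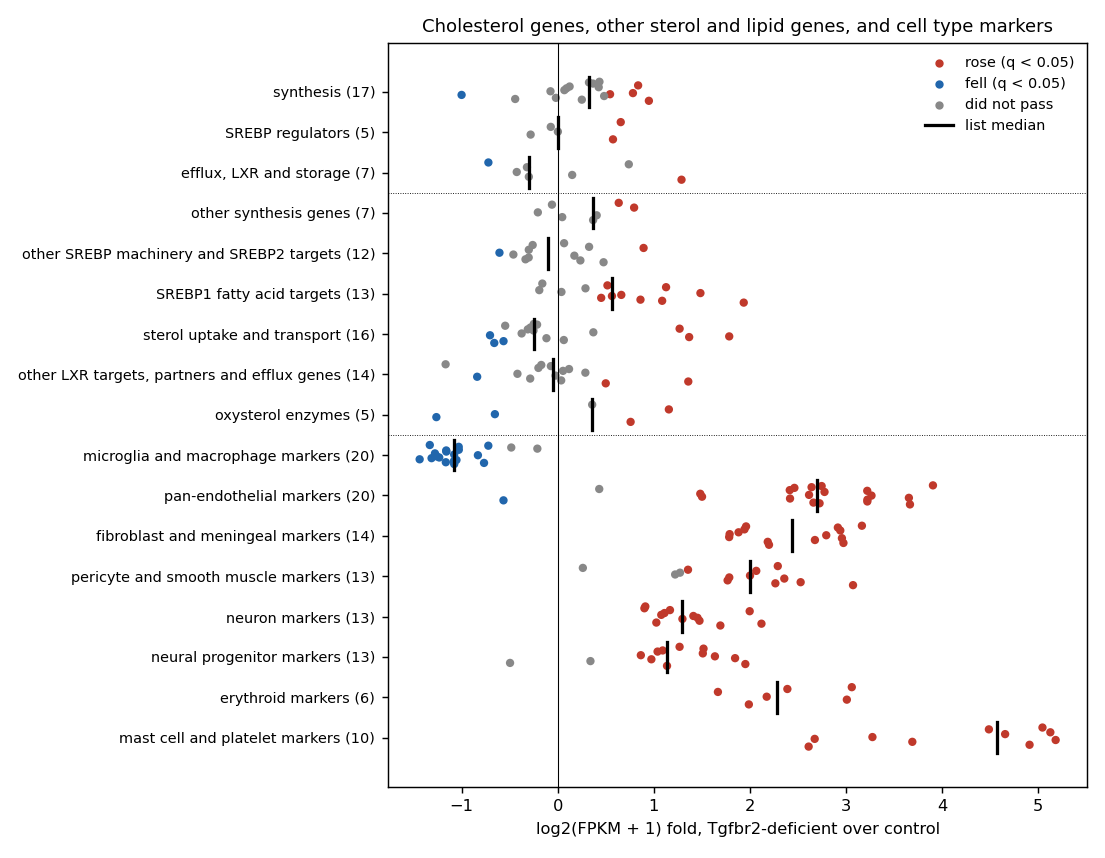
Each point is the log2(FPKM + 1) fold of 1 tested gene, Tgfbr2-deficient over control, in lists of cholesterol genes, other sterol and lipid genes and cell type markers, with the number tested in brackets and a black line at the median. The cholesterol lists lie near 0, with medians of 0.32, 0.00 and −0.30 that each gain 0.54 under centring on ribosomal protein genes, while macrophage markers have a median of −1.08 and pan-endothelial markers of 2.69.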

How the data were processed

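RNA of sorted brain cells was measured in 4 Tgfbr2-deficient and 3 control libraries, grouped by the genotype in the labels. Per the labels' protocols, cDNA was made with SMART-Seq v4 and libraries with Nextera XT, which do not mark strand. Per the submitters' processing notes, reads were handled with TopHat2, Cufflinks 2.2.1 and Cuffdiff on mm10. No source used here gives the annotation or options. The authors' deposited table holds, per the file headers, 1 FPKM per gene and group, a log2 fold (Tgfbr2-deficient over control), a test statistic (a score), a p-value and a q-value. It held 0 columns of values per library, so depth and its limits on precision are unknown.

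Genes with the authors' status OK and 1 FPKM or more in at least 1 group were tested (13356 of 23358 entries) and called at a deposited q-value under 0.05. List medians use log2(FPKM + 1), which understates folds of low genes. Of 231 symbols in other lists 229 matched, 4 through RefSeq synonyms. The locus start in the table counts from 0 and is given counted from 1. Shared exonic bases come from GENCODE M21. The code was tested on simulated data, with Python 3.11.15 and pandas 2.3.3. The members and lists were chosen with earlier results of these data known. Named were all members and, per other list, up to 4 called genes with the smallest p, ties by fold; certain genes it picks are not reported here. Npc2, Scarb1, Acly, Fads1, Fasn, Por and Cyb5r3 fall outside it and were named after their values were seen. No test compared lists. Alternatives were other FPKM filters, q thresholds, q recomputed, a fold minimum, entries of several symbols left out, a pseudocount of 0.1 FPKM and centring on all tested or ribosomal protein genes.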

Additional observations from a re-analysis of the deposited data

How the results depend on the processing

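No paired analysis was possible because the table carries 1 value per group, and for the same reason no library could be left out. With 0.1 FPKM added in place of 1 FPKM, all 29 members kept the sign of their fold. Adding 0.54 by centring on 50 ribosomal protein genes gave medians of 0.91 for the mevalonate steps, 0.83 for the sterol steps, 0.54 for the regulators and 0.24 for efflux. It turned the sign of 8 members that were not called, with Pmvk at 0.10, Mvd at 0.46, Tm7sf2 at 0.52, Insig2 at 0.26, Srebf1 at 0.47, Nr1h2 at 0.22, Mylip at 0.11 and Soat1 at 0.24. Centring on all tested genes gave Mvd 0.0031, Tm7sf2 0.059 and Srebf1 0.0060, also turned. The cause of the shift in ribosomal protein genes was not tested. The difference between synthesis and efflux medians, with Ebp, Nr1h3 or Abca1 left out in alternatives chosen after seeing the data, was 0.65 without Ebp, 0.64 without Nr1h3 and 0.40 without Abca1.

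The called members moved with the threshold. At q under 0.01 the higher genes were 0 in the mevalonate steps and 1 among the regulators, and 0 efflux genes were lower, with Hmgcs1, Srebf2 and Abca1 no longer called. With a log2 fold of at least 1 the higher genes were 0 in the mevalonate steps, 1 in the sterol steps and 0 among the regulators, and 0 efflux genes were lower. With q recomputed, 0 efflux genes were lower. Over all tested genes, 1643 were higher at a minimum of 5 FPKM, 1026 were lower at q under 0.01 and 368 were lower with a log2 fold of at least 1.

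In the other lists, a minimum of 5 FPKM left 1 higher gene among the synthesis genes, 5 among the fatty acid genes, 1 in uptake and transport, 1 in other LXR genes and 0 among oxysterol enzymes. With no filter 2 genes of the SREBP machinery and 3 oxysterol enzymes were higher. At q under 0.01, 0 of the SREBP machinery and 0 of the other LXR genes were lower, 1 other LXR gene was higher and 1 oxysterol enzyme was lower. With a log2 fold of at least 1, 1 other synthesis gene, 5 fatty acid genes and 1 other LXR gene were higher, while 0 genes of the SREBP machinery, 0 in uptake and transport, 0 other LXR genes and 1 oxysterol enzyme were lower.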
